A study of Mus musculus with 12 samples.

Results

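Genes of motile cilia and of the multiciliated cells that build them were followed in the lungs of mouse embryos at E15.5. The 45 genes were taken from a list of multiciliated cell regulators, axonemal dyneins, radial spoke, central pair and tektin genes, other genes of ciliated cells and 3 intraflagellar transport genes, and were found on the array through the gene symbols of the platform annotation. Of the 45 genes, 35 had a probe under their own symbol, and Dnai1 had its probe under the older symbol Dnaic1. These 36 genes had 52 probes, of which 25 were above background, with 4 or more of the 12 arrays at a detection p under 0.01. The 25 probes belonged to 22 genes, which were measured among the 8311 genes tested.

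Messenger RNA was measured on Illumina bead arrays in lungs of the 129/Sv strain, with 4 arrays for each of 3 genotypes. Map2k1 encodes MEK1 and Map2k2 encodes MEK2, the pair of kinases that phosphorylate and activate ERK. Every embryo carried 1 Dermo1-Cre allele, which expresses the recombinase from the Twist2 locus in mesenchyme, and the control lungs carried nothing else that the labels name (Dermo1+/Cre). The second genotype, Mek1+/flox;Mek2-/-;Dermo1+/Cre, lacked Mek2 in all cells and carried 1 floxed Mek1 allele, and is called Mek1+/flox below. The third, Mek1flox/flox;Mek2-/-;Dermo1+/Cre, lacked Mek2 in all cells and had both Mek1 alleles floxed, and is called the double mutant. Multiciliated cells are epithelial, so they lie outside the usual domain of this Cre driver, while the loss of Mek2 includes them in both mutant genotypes. Whether 1 embryo or several went into a specimen is not stated in the labels, so p-values measure the spread between these specimens, which may be partly technical.

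Multiciliated cells of the airway carry many motile cilia on their surface and move mucus. In their differentiation Mcidas, with its relative Gmnc, starts the programme, Ccno acts in the production of the many basal bodies, and Foxj1 and the Rfx factors switch on genes of the axoneme. The axoneme is a ring of microtubule doublets around a central pair, with dynein arms that generate force and radial spokes that connect the ring to the centre. In the mouse lung the first such cells appear in the epithelium of the larger airways during the second part of gestation. In whole lung RNA, fewer cells of a type and less RNA per cell cannot be told apart.

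The targeted genes were read first. The Map2k2 probe that was above background on all arrays was at a log2 intensity of 11.59 ± 0.08 in controls, 10.58 ± 0.15 in Mek1+/flox lungs and 10.85 ± 0.24 in double mutants (SD, n = 4 each), so signal remained at this probe in both mutant genotypes. The other Map2k2 probe was above background on 4 control, 0 Mek1+/flox and 1 double mutant arrays, at 5.86 ± 0.35, 5.10 ± 0.41 and 5.05 ± 0.30. Nothing given here places either probe relative to the deleted part. The Map2k1 probe was not above background on any of the 12 arrays and checks nothing. The lung epithelial markers Sftpc and Nkx2-1 were above background on all 12 arrays. The number of probes above background per array ranged from 10467 to 11878, and within genotypes the correlation of log2 values between arrays ran from 0.979 to 0.993. The raw upper quartile of intensity was 390.1 and 388.3 on control arrays 2 and 3 and at most 306.4 on the other arrays, so the 2 brightest arrays were both controls. Results for double mutants against controls are therefore also given without them.

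Promoter sequence of the genes that were higher in double mutants is shown first, because RFX factors, which regulate many genes of motile cilia, bind a motif called the X-box. The sequences are RefSeq promoter windows of build GRCm38.p6, which run from 250 bases before to 50 bases after each gene's start and were available for 37 of the 45 genes. Motifs were searched on both strands as the X-box half-site GTTGCC, the X-box palindrome, which is GTTNCC and GGNAAC with 2 bases between and can contain the half-site, and the forkhead motif GTAAACA. The half-site was found in the windows of 22 of the 37 genes (59.5%) and in 14.1% of all 27025 genes with a window. Among the genes that rose in double mutants against controls it was found in 5 of the 7 with a window (71.4%), and among those above background that did not pass the threshold in 6 of 9 (66.7%), so it was about as frequent in genes that did not pass. The full palindrome was found in 0 of the 37 windows and in 0.529% of all genes. The forkhead motif was found in 4 of the 37 (10.8%), namely Ak7, Mlf1, Myb and Sntn, and in 4.05% of all genes. The half-site began at position -219 from the start of Ccno, -195 from that of Mcidas, -51 from that of Dynlrb2, and 35 bases into the transcript of Spag6l. Tekt1 had 2 half-sites, at -35 on the opposite strand and at -15. In the stretches below, capitals mark the half-site, which reads GGCAAC where it lies on the opposite strand. The stretches lie at chr13:112987552-112987638 on the plus strand for Ccno, chr13:112993623-112993728 on the plus strand for Mcidas, chr11:72361883-72361967 on the minus strand for Tekt1, chr8:116504914-116505014 on the plus strand for Dynlrb2 and chr16:16829314-16829341 on the minus strand for Spag6l.
Ccno: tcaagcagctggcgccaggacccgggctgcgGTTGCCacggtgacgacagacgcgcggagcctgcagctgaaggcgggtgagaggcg
Mcidas: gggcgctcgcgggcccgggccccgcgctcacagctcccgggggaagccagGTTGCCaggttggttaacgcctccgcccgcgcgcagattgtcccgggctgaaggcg
Tekt1: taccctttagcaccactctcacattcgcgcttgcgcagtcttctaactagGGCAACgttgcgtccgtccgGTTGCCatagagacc
Dynlrb2: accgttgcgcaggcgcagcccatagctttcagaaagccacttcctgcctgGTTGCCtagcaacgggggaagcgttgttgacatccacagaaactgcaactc
Spag6l: cggttgctgtcgGTTGCCctggagacgc
These matches describe letters in a window and say nothing of binding.

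Double mutant lungs were compared with controls for all 22 measured genes. Of these, 10 (45.5%) passed the threshold of an adjusted p under 0.05, and all 10 were higher in double mutants. They were the regulators Mcidas and Ccno, the dynein genes Dnali1 and Dynlrb2, the dynein assembly genes Dnaaf1 and Dnaaf3, the radial spoke gene Rsph1, the central pair gene Spag6l, the tektin Tekt1, and Riiad1. Their differences ran from 0.77 to 1.34 on the log2 scale, or from 1.70-fold to 2.54-fold. Over all genes tested 3.28% passed the threshold, 2.06% higher and 1.23% lower. The list was chosen with earlier results of these data known. Its shares and medians, here and below, are therefore not independent of these data and are only described. The test was limma's moderated test on log2 intensities over all 12 arrays, two-sided, with Benjamini-Hochberg adjustment over the 8311 genes. The median difference was 0.60 over the 22 genes, of which 20 were positive, and -0.0036 over all genes, of which 49.3% were positive. Dnali1 and Zmynd10 reached the limit of 4 arrays only with the double mutant arrays, in which they were higher, which favours a difference. Dnali1 also passed with no filter on detection, and Zmynd10 did not pass. The 10 genes above background on all 12 arrays are therefore also given: 4 of those passed, namely Ccno, Tekt1, Rsph1 and Dynlrb2. Folds here come from intensities with a background offset of 16 and understate the change of dim probes.

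Of the regulators, 4 of 7 were measured, and Mcidas and Ccno rose. Mcidas encodes multicilin, a coiled-coil coactivator that works with E2F factors. Its log2 intensities were 5.86, 5.33, 5.72 and 5.27 in the controls, 5.45, 6.08, 5.34 and 5.14 in the Mek1+/flox lungs, and 6.25, 6.90, 6.29 and 6.97 in the double mutants. Every double mutant array lay above every array of the other genotypes, and the probe was above background on 3 control, 1 Mek1+/flox and 4 double mutant arrays. Mcidas was higher in double mutants than in controls by 1.06 ± 0.22 (log2 difference ± SE, 2.08-fold, limma adjusted p = 0.0225).

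Ccno encodes a cyclin-like protein of the structures that produce basal bodies. It was at 8.31, 8.23, 8.30 and 8.18 in the controls, 8.13, 8.82, 8.31 and 8.0 in the Mek1+/flox lungs, and 9.17, 9.33, 8.88 and 9.46 in the double mutants. The double mutants again lay above all other arrays, and the SD of the controls was 0.06. The difference from controls was 0.96 ± 0.16 (1.94-fold, limma adjusted p = 0.00916).

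Foxj1, the forkhead factor of motile ciliogenesis, was at 5.71, 5.45, 5.15 and 5.57 in the controls, 6.17, 5.64, 5.44 and 5.96 in the Mek1+/flox lungs, and 5.71, 5.56, 5.30 and 5.75 in the double mutants. The ranges of the 3 genotypes overlapped, and Foxj1 was above background on 3 arrays of each. Its difference between double mutants and controls was 0.11, with a 95% interval from -0.25 to 0.47 (limma adjusted p = 0.776). Rfx2, an RFX factor that binds the X-box, was at 7.95, 8.10, 7.92 and 7.62 in the controls, 7.75, 7.77, 7.82 and 7.80 in the Mek1+/flox lungs, and 8.02, 8.18, 8.03 and 8.05 in the double mutants. Control array 2 lay within the double mutant range, and the difference of 0.17 had an interval from -0.05 to 0.39 (limma adjusted p = 0.38). The remaining regulators Myb, Rfx3 and Trp73 were not above background on any array.

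**Figure D1:**
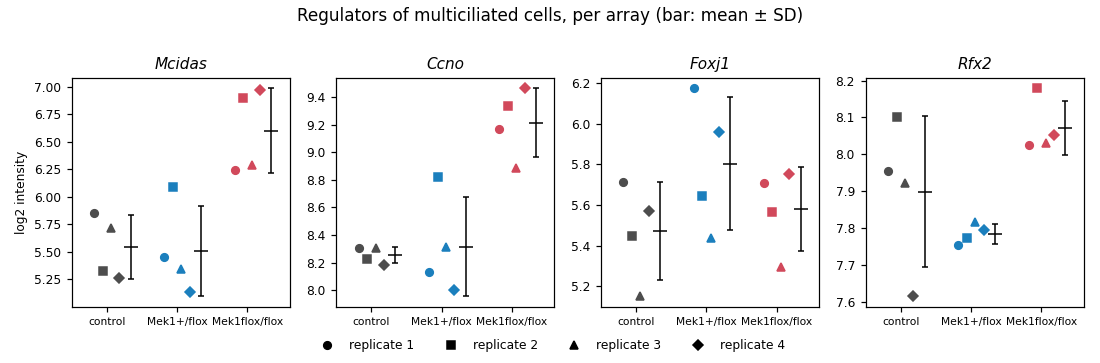
Log2 intensity of the 4 measured regulators on each of the 12 arrays (vertical axis), by genotype (horizontal axis), with mean and SD of the 4 arrays as bars and symbols for the replicate numbers. Mcidas and Ccno in the double mutants lie above all other arrays, while the genotypes overlap for Foxj1, and for Rfx2 the double mutants overlap the controls.

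Of the 35 axonemal and other ciliated cell genes, 16 were measured, and 8 of these were higher in double mutants than in controls. The median difference over the 16 was 0.78, and 14 were positive. Within the dynein subunits 2 of 3 measured genes rose. Dnali1, a light intermediate chain of the inner dynein arm, was at 4.72, 5.43, 4.89 and 4.94 in the controls, 5.10, 5.81, 5.45 and 4.93 in the Mek1+/flox lungs, and 5.94, 6.26, 6.35 and 6.80 in the double mutants. All 4 double mutant arrays lay above the rest, and the probe was above background on these 4 but on only 1 control and 1 Mek1+/flox array. Its difference from controls was 1.34 ± 0.22 (2.54-fold, limma adjusted p = 0.00709), and of the 22 genes this was the largest estimate. Dynlrb2, a roadblock-type dynein light chain, was at 7.77, 8.0, 7.26 and 7.39 in the controls, 7.84, 7.89, 7.73 and 6.71 in the Mek1+/flox lungs, and 7.96, 9.03, 9.01 and 9.39 in the double mutants. Double mutant array 1 fell below control array 2, so the groups overlapped, and the difference was 1.24 ± 0.31 (2.36-fold, limma adjusted p = 0.0475). Dnai1, an intermediate chain of the outer arm, differed by 0.14 (limma adjusted p = 0.741) and was above background on 2 arrays of each genotype.

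Dynein arms are put together in the cytoplasm by assembly factors before they reach the cilium, and 2 of the 3 measured genes for these factors rose. Dnaaf1 was at 5.51, 5.50, 5.31 and 5.29 in the controls, 5.53, 5.42, 5.65 and 4.80 in the Mek1+/flox lungs, and 6.0, 6.10, 6.60 and 6.45 in the double mutants. The double mutants did not overlap the other genotypes, and the difference from controls was 0.89 ± 0.18 (1.85-fold, limma adjusted p = 0.0185). It was above background on 3 control, 1 Mek1+/flox and 4 double mutant arrays. A separate Dnaaf1 probe was above background on only 1 array and was not tested. That probe was at 5.24, 5.17, 5.08 and 4.88 in the controls and 5.17, 4.81, 4.99 and 5.05 in the double mutants. Dnaaf3 was at 5.23, 5.73, 5.30 and 5.52 in the controls, 6.22, 6.44, 6.30 and 5.68 in the Mek1+/flox lungs, and 6.12, 5.96, 6.24 and 6.53 in the double mutants. Here both mutant genotypes had most of their arrays above the controls, and the difference of double mutants from controls was 0.77 ± 0.17 (1.70-fold, limma adjusted p = 0.0299). Zmynd10, a further assembly factor, was at 4.88, 5.35, 4.86 and 4.85 in the controls and 5.44, 5.97, 5.49 and 6.20 in the double mutants. These values did not overlap, yet the difference of 0.79 ± 0.28 missed the threshold (limma adjusted p = 0.144), and the probe was above background on 1 control, 2 Mek1+/flox and 4 double mutant arrays.

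Among parts of the axoneme itself, Rsph1, a radial spoke head protein, was at 7.81, 7.97, 7.30 and 7.15 in the controls, 7.85, 7.87, 7.58 and 6.73 in the Mek1+/flox lungs, and 8.22, 8.88, 8.95 and 9.17 in the double mutants. The double mutants lay above all other arrays, by 1.25 ± 0.27 from controls (2.37-fold, limma adjusted p = 0.0263). Rsph9, of the same spoke head, differed by 0.21 (limma adjusted p = 0.387). Spag6l, a protein of the central pair, was at 5.43, 5.92, 5.20 and 5.72 in the controls, 5.13, 6.12, 5.57 and 5.46 in the Mek1+/flox lungs, and 6.33, 6.99, 6.89 and 6.75 in the double mutants. The double mutants did not overlap the others, and the difference from controls was 1.17 ± 0.21 (2.25-fold, limma adjusted p = 0.0107). Its probe was above background on 2 control, 2 Mek1+/flox and 4 double mutant arrays, and because Spag6l has a close copy, Spag6, which of them the probe reads is uncertain. A separate Spag6l probe was not above background on any array. Tekt1, a tektin filament protein of the doublets, was at 7.63, 7.24, 7.32 and 7.03 in the controls, 7.32, 7.89, 7.32 and 7.11 in the Mek1+/flox lungs, and 8.05, 8.64, 8.25 and 8.35 in the double mutants. Again no double mutant array fell within the range of the others, and the difference from controls was 1.02 ± 0.18 (2.03-fold, limma adjusted p = 0.00916). A separate Tekt1 probe gave 0.90 (adjusted p = 0.0218 when all passing probes were tested with limma).

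Of 5 other measured genes of ciliated cells, Riiad1 rose. It was at 6.35, 5.74, 5.95 and 6.16 in the controls, 5.98, 5.99, 5.62 and 6.09 in the Mek1+/flox lungs, and 6.35, 7.14, 7.0 and 6.99 in the double mutants. Double mutant array 1 was level with control array 1, and the difference was 0.82 ± 0.18 (1.77-fold, limma adjusted p = 0.0256). Mlf1, a transcript found in ciliated cells, differed by 0.44 (limma adjusted p = 0.189) and Ak8, an adenylate kinase of cilia, by 0.42 (adjusted p = 0.102). In both of these every double mutant array lay above every control array although neither passed. Sntn, a protein of the ciliary tip, had a difference of -0.31 (limma adjusted p = 0.574) and Cfap53 one of -0.12 (adjusted p = 0.825). Both were above background on 2 control, 1 Mek1+/flox and 1 double mutant arrays, just inside the limit of 4 arrays. Tppp3, a tubulin-binding protein abundant in ciliated cells, differed by 0.19 (limma adjusted p = 0.431).

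**Figure D2:**
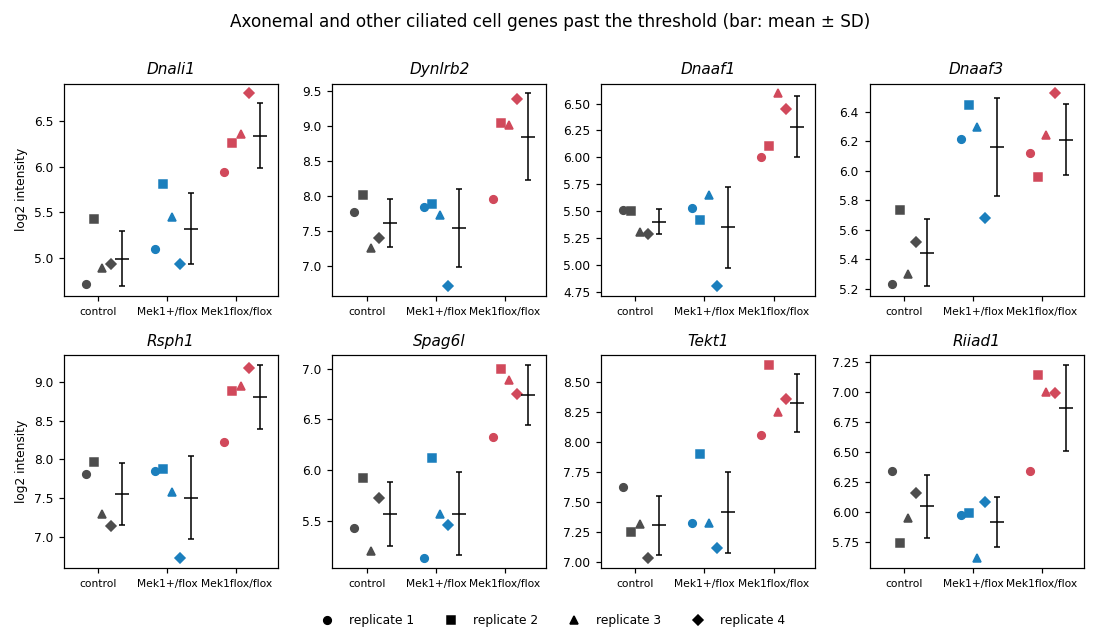
Log2 intensity on each array (vertical axis) by genotype (horizontal axis) for the 8 axonemal and other ciliated cell genes that rose in double mutants against controls, with mean and SD of 4 arrays as bars. Double mutant arrays lie above all controls for 6 of the 8, and Dynlrb2 and Riiad1 overlap through double mutant array 1.

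Intraflagellar transport carries material along both motile and primary cilia, and its genes are expressed in most lung cells. Ift88 differed by 0.25 (limma adjusted p = 0.223) and Ift172 by 0.01 (adjusted p = 0.967) between double mutants and controls, both from probes above background on all 12 arrays. Neither gene passed the threshold in any comparison. The log2 intensity of Ift172 lay between 9.98 and 10.33 on all arrays at this probe, the brightest of 3. The others, dimmer but also above background on all 12 arrays, differed by 0.23 (adjusted p = 0.302) and 0.10 (adjusted p = 0.784) from controls. Against Mek1+/flox lungs they differed by 0.33 (adjusted p = 0.275) and 0.19 (adjusted p = 0.711). These p-values are from limma on all passing probes.

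Across the 22 genes, the double mutant arrays stood apart from the controls to different degrees. Every double mutant array exceeded every control array in 11 genes, where the share in the whole table was 7.42%. Within the double mutants, array 1 was the lowest of 4 in 8 of the 10 genes that rose and array 4 the highest in 6. Averaged over these 10 genes, the deviation from the control mean was 0.66, 1.15, 1.07 and 1.31 on the 4 double mutant arrays. It was 0.08, 0.46, 0.11 and -0.31 in the Mek1+/flox lungs and 0.09, 0.14, -0.12 and -0.11 in the controls. In the Mek1+/flox lungs array 2 was the highest in 8 of the 10 genes and array 4 the lowest in 8.

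**Figure D3:**
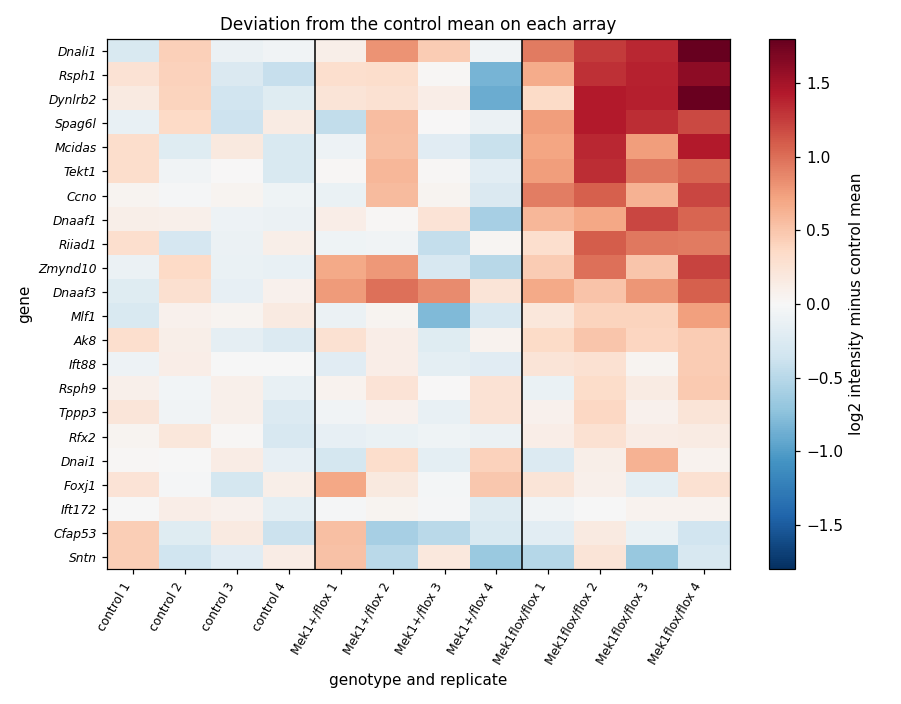
Deviation of the log2 intensity from the control mean (colour) for the 22 measured genes (rows) on the 12 arrays (columns, by genotype and replicate). Red fills the upper rows in the 4 double mutant columns, palest on double mutant array 1, and the lower rows, such as Ift172 and Foxj1, show little difference between genotypes.

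The stability of the 10 calls differed between genes when each array was left out in turn. Ccno, Tekt1, Spag6l and Dnali1 passed the threshold in all 12 omissions. Mcidas passed in 8, with adjusted p from 0.0671 to 0.078 in limma without control 2, control 4, double mutant 2 or double mutant 4. Dnaaf1 also passed in 8, with adjusted p from 0.052 to 0.0586 without control 3, control 4, double mutant 3 or double mutant 4. Rsph1 passed in 7, with adjusted p from 0.0675 to 0.0827 without control 3 or 4 or double mutant 2, 3 or 4, and Riiad1 passed in 7, with adjusted p from 0.0722 to 0.0868 without control 2 or 3 or double mutant 2, 3 or 4. Dnaaf3 passed in 6, with adjusted p from 0.0517 to 0.0922 without control 1, 3 or 4 or double mutant 1, 3 or 4. Dynlrb2 passed in 2, those without Mek1+/flox array 4 and without double mutant array 1, with adjusted p up to 0.139 in the rest. All of these differences stayed positive.

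Without the 2 brightest arrays, control arrays 2 and 3, only 2 controls were left. The differences of the 10 genes then ran from 0.62 for Riiad1 to 1.51 for Dnali1, against 0.77 to 1.34 with all arrays. All 10 still had an unadjusted p under 0.05 in limma, but only Dnali1 passed after adjustment (adjusted p = 0.0483), and the others had adjusted p up to 0.289. The Dnali1 probe was not above background on control array 1 or 4, the controls that were left. Its call therefore sets the double mutants against controls without signal above background. With these arrays left out, 30 of the 8311 genes in the whole table passed. With array brightness as a covariate, Dnali1 was again the only gene of the 10 to pass (limma adjusted p = 0.027), at a difference of 1.39.

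**Figure D4:**
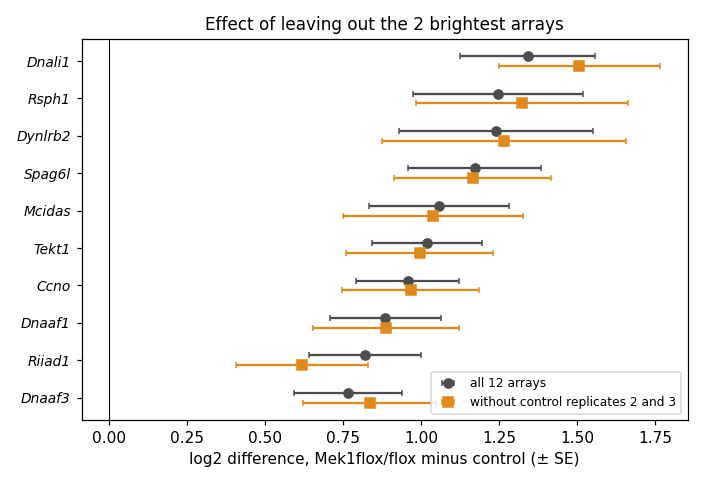
Log2 difference between double mutants and controls with its SE (horizontal axis) for the 10 genes that rose (vertical axis), from all 12 arrays and without control arrays 2 and 3. The differences remain on the positive side for all 10 genes, between 0.62 and 1.51, and the standard errors are wider.

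Double mutants were next compared with Mek1+/flox lungs, which differ from them in 1 further floxed Mek1 allele and also lack Mek2. This comparison uses the same 4 double mutant arrays as the one with controls. Of the 22 genes, 6 (27.3%) passed the threshold, all higher in double mutants: Mcidas, Ccno, Spag6l, Tekt1, Riiad1 and Dnaaf1. Over all genes tested 0.566% passed, 0.421% higher and 0.144% lower. The median difference was 0.50 over the 22 genes and 0.0075 over all genes. Every double mutant array lay above every Mek1+/flox array in 12 of the 22 genes, where the share in the whole table was 4.2%.

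Spag6l was higher than in Mek1+/flox lungs by 1.17 ± 0.21 (2.25-fold, limma adjusted p = 0.0321). Mcidas was higher by 1.09 ± 0.22 (2.13-fold, adjusted p = 0.0499) and Ccno by 0.90 ± 0.16 (1.86-fold, adjusted p = 0.0324). The differences were 0.95 ± 0.18 for Riiad1 (adjusted p = 0.0335), 0.94 ± 0.18 for Dnaaf1 (adjusted p = 0.0336) and 0.91 ± 0.18 for Tekt1 (adjusted p = 0.0381). Another 3 genes had differences of this size and missed the threshold. Rsph1 differed by 1.30 ± 0.27 (limma adjusted p = 0.0558), Dynlrb2 by 1.30 ± 0.31 (adjusted p = 0.0887) and Dnali1 by 1.02 ± 0.22 (adjusted p = 0.0592). All 3 had double mutant arrays above all Mek1+/flox arrays.

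The calls of this comparison rested on few arrays. With each array left out in turn, Spag6l passed in 6 of the 12 omissions, Ccno, Tekt1 and Riiad1 in 4 each, Dnaaf1 in 3 and Mcidas in 1. No gene passed without Mek1+/flox array 1, Mek1+/flox array 4, double mutant array 2 or double mutant array 4, where the adjusted p of these 6 genes lay between 0.0603 and 0.141 in limma. Of the 22, 1 gene passed without control array 3, Mek1+/flox array 3 or double mutant array 3, and 2 without control array 2.

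For the remaining genes the difference was smaller. Mlf1 differed by 0.72 (limma adjusted p = 0.0903), Zmynd10 by 0.62 (adjusted p = 0.389), Ift88 by 0.37 (adjusted p = 0.182) and Ak8 by 0.36 (adjusted p = 0.287). Rfx2 was higher on every double mutant array than on every Mek1+/flox array, by 0.29 ± 0.10, with an interval from 0.07 to 0.51 before adjustment and an adjusted p of 0.283 in limma. Foxj1 differed by -0.22, with an interval from -0.59 to 0.14 (adjusted p = 0.674). Dnaaf3 differed by 0.05, with an interval from -0.32 to 0.42 (adjusted p = 0.948).

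Mek1+/flox lungs were last compared with controls, which share neither the loss of Mek2 nor the floxed allele. Here 0 of the 22 genes passed the threshold in limma, and 1, Dnaaf3, had an unadjusted p under 0.05, where 0.734% of all genes passed (0.325% higher and 0.409% lower) and 16.9% had such a p. The median difference was -0.02 over the 22 genes and -0.01 over all genes, and no gene had groups that did not overlap, against 4.24% higher and 5.68% lower in the whole table. Differences of the regulators were -0.04 for Mcidas (limma adjusted p = 0.953), 0.06 for Ccno (adjusted p = 0.887), 0.33 for Foxj1 (adjusted p = 0.337) and -0.11 for Rfx2 (adjusted p = 0.609). The Foxj1 interval ran from -0.03 to 0.69.

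Dnaaf3 had the difference farthest from 0 here, at 0.72 ± 0.17 (1.64-fold, limma adjusted p = 0.0666). Without Mek1+/flox array 4, the only one of that genotype within the control range, it was 0.87 and passed (adjusted p = 0.0277). In the same comparison Dnali1 differed by 0.33 (adjusted p = 0.469), Rsph1 by -0.05 (adjusted p = 0.946) and Spag6l by 0.00 (adjusted p = 0.997). The 3 comparisons are pairwise differences among the same 12 arrays, so they are not independent of each other.

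**Figure D5:**
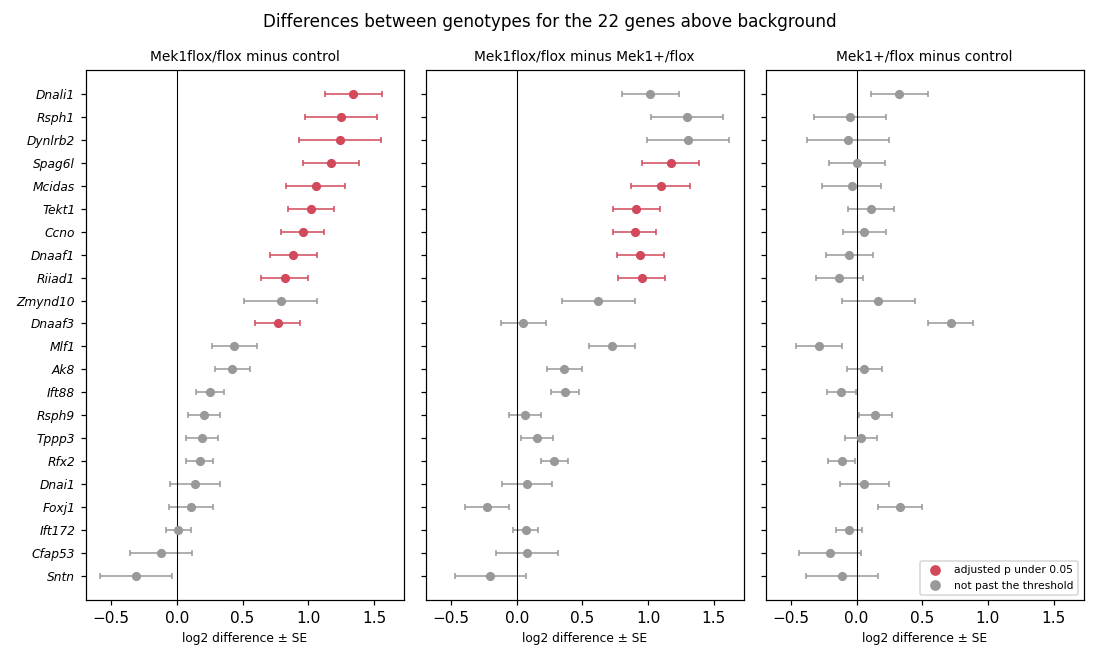
Log2 differences with SE (horizontal axes) for the 22 measured genes (rows) in the 3 comparisons (panels), red where limma's adjusted p was under 0.05. The number of red genes is 10 in the first panel, 6 in the middle panel and 0 in the last, where the points lie around 0 apart from Dnaaf3 at 0.72.

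A further 14 genes had probes that did not reach the limit. Myb, Rfx3, Trp73, Spag16, Spag17, Dnah5, Dnah11, Ccdc40, Enkur and Ift57 were not above background on any of the 12 arrays. Ccdc39 and Ccdc113 were above background on 2 arrays each, and Hydin and Cfap52 on 1. These include the heavy chains of the outer dynein arm and the proteins that set the spacing of arms and spokes along the doublet, so of 4 genes for such rulers and nexin links none was measured. No probe was listed under the symbols Tekt2, Tekt4, Rsph4a, Dnah9, Dnai2, Ak7, Lrrc23, Iqcg and Cfap126.

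Other genes of the same pathway were read from further lists. Of 20 other regulators of multiciliated cells 11 were measured, and 0 passed in any comparison. Over all genes at most 3.28% passed in a comparison, so 0 of 11 cannot be told from that share. Their median difference between double mutants and controls was -0.24. The measured genes include general cell cycle and centriole genes, so this median does not describe multiciliated cells alone. Foxn4, a forkhead factor of multiciliated cells in the frog Xenopus, was at 5.38, 5.45, 4.90 and 5.54 in the controls and 5.60, 6.10, 6.20 and 6.27 in the double mutants, a difference of 0.72 (limma adjusted p = 0.0707). E2f4, the partner of multicilin, had a difference of -0.44 (adjusted p = 0.061). Gmnc and Deup1 were not above background on any array, and Cdc20b had no probe under its symbol.

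Of 110 other genes of the motile axoneme 59 had a probe and 25 were measured. Of these 1 (4%), Pifo, rose in double mutants against controls, a share close to the 3.28% of all genes that passed. The median difference was 0.15, with 20 of 25 positive. The difference farthest below 0 in this list was that of Wdr78, at -0.71 ± 0.19 (limma adjusted p = 0.0668). Pifo, known from ciliated cells of the mouse node, was at 4.66, 4.98, 4.73 and 4.91 in the controls, 5.41, 5.0, 4.66 and 4.50 in the Mek1+/flox lungs, and 5.58, 5.90, 6.08 and 5.82 in the double mutants. It was not well above background on any array of the first 2 genotypes, and in double mutants its signal was at least 1.42-fold higher than in controls (limma adjusted p = 0.00901) and at least 1.30-fold higher than in Mek1+/flox lungs (adjusted p = 0.0328). Pifo reached the limit of 4 arrays only through the double mutant arrays, which favours a difference, and with no filter on detection its adjusted p against controls was 0.0149. Without the 2 brightest arrays the adjusted p was 0.101. The bound sets the double mutant mean against the lowest signal above background on each array of the other genotype, or against the probe itself where it was brighter. In the same list Efcab1 fell by 0.72 ± 0.15 in Mek1+/flox lungs against controls (adjusted p = 0.0447). Its values were 5.97, 5.90, 5.81 and 6.15 in the controls, 4.89, 5.13, 5.53 and 5.40 in the Mek1+/flox lungs, and 5.95, 5.79, 5.65 and 6.13 in the double mutants, and the call held in 3 of 12 omissions, with adjusted p up to 0.112 in the others.

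Genes that act in primary cilia or in both kinds of cilia gave 0 calls. Over all genes 3.28% passed for double mutants against controls and 0.566% against Mek1+/flox lungs. The share for Mek1+/flox lungs against controls was 0.734%. At these shares short lists hold few or no calls, so a count of 0 here or for the Notch genes describes no trait of them. Of 45 other intraflagellar transport and primary cilium genes 28 were measured, with a median difference of 0.04 between double mutants and controls. The Notch pathway, which biases airway epithelial cells between secretory and ciliated fates, had 12 of 19 genes measured and 0 past the threshold in any comparison, with a median of 0.05.

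Markers of other cell types were read beside the cilia genes, and their part in the result was not tested. Of the club and secretory cell markers 2 of 4 measured genes rose in double mutants against controls. Cbr2, a carbonyl reductase of club cells, was at 7.19, 6.99, 6.64 and 7.53 in the controls, 7.40, 7.34, 7.71 and 7.21 in the Mek1+/flox lungs, and 8.23, 8.81, 8.24 and 8.84 in the double mutants. The club cell cytochrome P450 gene Cyp2f2 was at 7.58, 7.40, 6.88 and 7.75 in the controls, 7.35, 7.50, 7.77 and 7.22 in the Mek1+/flox lungs, and 8.67, 8.92, 8.35 and 9.08 in the double mutants. No double mutant array of either gene overlapped the others, with differences from controls of 1.44 ± 0.20 (2.72-fold, limma adjusted p = 0.00277) for Cbr2 and 1.35 ± 0.20 (2.56-fold, adjusted p = 0.00393) for Cyp2f2. Without the 2 brightest arrays Cbr2 differed by 1.17 (adjusted p = 0.0484) and Cyp2f2 by 1.09 (adjusted p = 0.0529). The other measured markers did not pass against controls with all arrays. Aldh1a1 differed by 0.18 (limma adjusted p = 0.659) and Krt15 by 0.21 (adjusted p = 0.641). The summed intensity of the 4 markers is set mainly by Cbr2 and Cyp2f2, so it is not a separate result. Its log2 lay between 8.51 and 9.18 in controls, 8.70 and 9.0 in Mek1+/flox lungs, and 9.60 and 10.22 in double mutants. The defining club cell gene Scgb1a1 was above background on 1 control and 2 double mutant arrays and was not tested, and Scgb3a1 was not above background on any array.

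Of 12 measured general epithelial markers 1 (8.33%) rose, Krt19, by 0.69 (limma adjusted p = 0.0225), where 3.28% of all genes passed. The list had a median of 0.20. Its summed level lay between 12.98 and 13.18 in controls, 13.08 and 13.19 in Mek1+/flox lungs, and 13.27 and 13.35 in double mutants. Of 4 proximal epithelial markers 2 rose, Sox2 by 0.58 (adjusted p = 0.0469) and Muc1 by 0.57 (adjusted p = 0.0353). The other 2 of these 4, Foxa1 and Foxa2, did not pass. The summed level of the 4 is set mainly by the bright Foxa1 and Muc1. It lay between 10.84 and 10.94 in controls, 10.75 and 11.18 in Mek1+/flox lungs, and 10.98 and 11.38 in double mutants. Of 8 distal epithelial markers 0 passed, with a median of 0.28. The differences ran from -0.55 for Id2 (limma adjusted p = 0.221) to 0.92 for Napsa (adjusted p = 0.0593). For Napsa every double mutant array lay above every control array. The summed level of the list is set mainly by the bright Sftpc. It lay between 12.60 and 13.28 in controls, 12.96 and 13.11 in Mek1+/flox lungs, and 12.89 and 13.47 in double mutants. Krt19 passed in 7 of the 12 omissions of an array, Insm1 in 6, Muc1 in 5 and Sox2 in 4, with adjusted p up to 0.137 in the others. Sox2 passed in only 2 of 14 other settings. Without background correction it differed by 0.22 (limma adjusted p = 0.108). With no filter on detection neither Sox2 (adjusted p = 0.0761) nor Muc1 (adjusted p = 0.0555) passed, while Krt19 did (adjusted p = 0.0354).

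Of 3 neuroendocrine markers Insm1 passed (limma adjusted p = 0.0353), but its probe was above background on 1 control, 0 Mek1+/flox and 4 double mutant arrays. It reached the limit of 4 arrays only through the double mutants, and with no filter on detection it did not pass (adjusted p = 0.0571). Of 5 mesothelial markers Upk3b rose, by 0.65 (limma adjusted p = 0.0142), with a median of 0.08 over the list. Krt7 differed by 0.32, Wt1 by 0.08, Aldh1a2 by 0.06 and Upk1b by -0.44, and none of these passed. The summed level of the list is set mainly by the bright Krt7 and Upk3b. It lay between 10.78 and 11.09 in controls, 10.90 and 11.18 in Mek1+/flox lungs, and 11.22 and 11.35 in double mutants. Of 8 mesenchymal markers 0 passed, and the 1 measured basal cell marker did not pass, while the basal cell markers Trp63, Krt5 and Aqp3 were not above background on any array. Without the 2 brightest arrays none of Krt19, Sox2, Muc1, Insm1 and Upk3b passed in limma, with adjusted p from 0.117 to 0.334 and differences from 0.51 to 0.69. With array brightness as a covariate these 5 did not pass either, with adjusted p from 0.0608 to 0.178. Against Mek1+/flox lungs, Cbr2 was higher by 1.11 (limma adjusted p = 0.0303) and Cyp2f2 by 1.29 (adjusted p = 0.0261), and no marker of the other lists passed. Both of these calls, and that of Pifo in the same comparison, were lost without Mek1+/flox array 4, double mutant array 2 or double mutant array 4, with adjusted p between 0.0754 and 0.103.

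Ccno and Mcidas are direct neighbours on chromosome 13, in the order Plpp1, Mtrex, Dhx29, Ccno, Mcidas, Cdc20b, Gpx8 and Gzma in the RefSeq table of GRCm38.p6. The neighbours were looked at after the values of both genes had been seen. Mtrex differed by -0.21 (limma adjusted p = 0.308), Dhx29 by -0.03 (adjusted p = 0.946) and Gpx8 by -0.25 (adjusted p = 0.177) between double mutants and controls. Plpp1 was higher by 0.48 ± 0.12 (adjusted p = 0.0459), and Gzma was not above background on any array.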

How the data were processed

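Total RNA of 12 lung specimens was biotin labelled and hybridised, as the labels' protocols say. In the deposited scanner table each probe has a linear intensity per probe without normalization between arrays, per the file headers, together with a deposited detection p-value against the negative controls of that array. The authors' series matrix holds log2 values, which had a median absolute difference of 0.00386 from the quantile-normalized intensities and array medians between 6.91 and 6.93, so they are uncentred log2 values that rise with intensity. The sources used here do not give the software.

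Intensities were background corrected by normexp, with its parameters taken from detection p-values (offset 16), and quantile normalized on the log2 scale with limma 3.58.1 in R 4.3.3. Probes needed 4 or more of 12 arrays with a detection p under 0.01 (11841 of 25697), and the brightest passing probe by mean over all arrays stood for a gene. Of the probes 23978 had 1 symbol, 0 had several and 1719 were unlisted and unnamed, and a RefSeq table of GRCm38.p6 held 23962. The 3 group means were fitted over 12 arrays with lmFit and eBayes (9 residual degrees of freedom, two-sided, Benjamini-Hochberg under 0.05 over 8311 genes). The fit was first tested on simulated data. The number of arrays limits the precision.

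Every measured gene of the list is named, in every sample where it passed or is a regulator. Of the other lists, genes past the threshold are named, and Gmnc, Deup1 and Cdc20b with their detection. Foxn4, E2f4, Wdr78, Scgb1a1, Aldh1a1, Krt15, Foxa1, Foxa2, Napsa and Id2 were named after their values were seen. So were the mesothelial markers besides Upk3b and the neighbours of Ccno. The members and lists were chosen with earlier results of these data known. Deviations of same-numbered samples of different genotypes had a correlation over 0.1 in 3 of 12 pairs (range -0.23 to 0.18). Between controls and double mutants the correlations were 0.02, 0.07, 0.16 and 0.18. Differently numbered samples were not set beside them, so this check cannot decide whether the numbers mark a pairing. Alternatives covered background correction, offset, scaling, the authors' values, filters, probe rule, variance model, array weights, arrays in the fit, replicate block, brightness and sex covariates, a stricter threshold and omission of arrays.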

Additional observations from a re-analysis of the deposited data

Results flagged for a closer look

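Each measured gene was looked at in each genotype for an array far from the other 3, by Dixon's ratio of the gap to the range. Of 66 groups of 4 arrays 3 exceeded its 95% critical value, where chance gives about 5%. Dynlrb2 was at 6.71 on Mek1+/flox array 4, with the others between 7.73 and 7.89. Zmynd10 was at 5.35 on control array 2, which was the only control array with the probe above background, with the others between 4.85 and 4.88. Ift88 was at 7.99 on Mek1+/flox array 2, with the others between 7.66 and 7.70.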

How the results depend on the processing

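Of the 22 genes, 10 passed for double mutants against controls. This count became 4 when a probe had to be above background on all 12 arrays (311 of 6995 genes in the whole table passed then), 1 with a brightness covariate or without the 2 brightest arrays, and 3 at an adjusted p under 0.01. Leaving out each array gave between 4 and 10. The log2 difference of each of the 10 stayed positive under every alternative run. Over the named genes and 3 comparisons, 72 values changed sign, none of them past the threshold in either fit, among them Foxj1, from 0.11 to -0.06 for double mutants against controls without the 2 brightest arrays. Against Mek1+/flox lungs the count of 6 became 10 without background correction, with an offset of 50 or from the authors' log2 values, 3 with detection on all 12 arrays, 2 with a sex covariate, 1 with upper-quartile scaling, and 0 with no detection filter, with only the arrays compared, without the 2 brightest arrays or at an adjusted p under 0.01. Leaving out each array gave between 0 and 6. For Mek1+/flox lungs against controls it stayed 0 except without Mek1+/flox array 4, where Dnaaf3 passed, so the range was 0 to 1.

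Whether the replicate numbers mark a pairing could not be decided. With the replicate number as a block, 6 of the 22 genes passed for double mutants against controls and 1 against Mek1+/flox lungs. Of the other axoneme genes 3 passed for double mutants against controls and 0 for Mek1+/flox lungs against controls.

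Of the other motile axoneme genes 1 passed in each comparison. For double mutants against controls it became 5 with array weights, 4 with upper-quartile scaling, 3 without background correction, with an offset of 50 or from the authors' values, 2 with no detection filter, every passing probe, trend and robust variance, only the arrays compared or a sex covariate, and 0 without the 2 brightest arrays, with 1 to 3 on leaving out an array. These counts mix directions. With array weights, no background correction, an offset of 50, the authors' values, trend and robust variance or a sex covariate, 1 of the calls was Wdr78, which was lower, and with detection on all 12 arrays Wdr78 was the only call (-0.71, limma adjusted p = 0.0473). Against Mek1+/flox lungs it became 2 with an offset of 50 or trend and robust variance, and 0 with upper-quartile scaling, detection on all 12 arrays, only the arrays compared, either covariate, without the 2 brightest arrays or at an adjusted p under 0.01, with 0 to 2 on leaving out an array. For Mek1+/flox lungs against controls it became 0 without background correction, with upper-quartile scaling, the authors' values, no filter, detection on all 12 arrays, only the arrays compared, either covariate, without the 2 brightest arrays or at 0.01, with 0 to 1 on leaving out an array. The cause of these shifts was not tested, apart from fewer genes or arrays where the alternative itself removes them. Signal over background limits the dim genes: 12 of the 22 were not above background on every array, and 14 others could not be tested. Over all genes the number past the threshold was 273 for double mutants against controls (30 without the 2 brightest arrays to 613 with array weights), 47 against Mek1+/flox lungs (1 with only the arrays compared to 84 with an offset of 50) and 61 for Mek1+/flox lungs against controls (5 without the 2 brightest arrays to 227 without background correction).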
